A study of Mus musculus with 37 samples.

Results

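The replication-dependent histone genes encode the bulk of the protein on which DNA is wound. They were taken here as every gene whose symbol starts with Hist1h, Hist2h, Hist3h or Hist4h, which gave 68 of the 24318 genes in each of 2 tables of RPKM, a read value scaled by gene length and by the mapped reads of the library. By histone type they were 6 H1, 18 H2a, 19 H2b, 12 H3 and 13 H4 genes. Of these, 54 carry the Hist1 prefix. The H2b genes include Hist3h2bb-ps, which its symbol marks as a pseudogene.

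The RNA came from mouse primordial germ cells, the embryonic precursors of eggs and sperm, which were sorted for green fluorescence from an Oct4-IRES-Gfp reporter. All embryos used here came from crosses of females homozygous for the Dnmt1 2lox allele with males carrying Blimp1-Cre. In the DCKO embryos, whose genotype is given as Dnmt1 -/-, the Cre driver, which is active in germ cells, removes Dnmt1, which encodes the methyltransferase that keeps up DNA methylation when DNA is replicated. The controls, given as wild type, carried the same fluorescent reporter and came from the same kind of cross. The earlier stage, E10.5 (E stands for embryonic day), has 3 DCKO libraries (2 female, 1 male) beside 4 controls (2 female, 2 male), and E11.5 has 10 DCKO libraries (6 female, 4 male) beside 8 controls (4 female, 4 male). Whether the libraries of 1 group stem from separate embryos is not in the labels, so p-values measure the spread between these libraries, which may be technical in part. The 12 libraries of E13.5 were not analysed here.

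A cell copies its DNA and its histones together: the H2A, H2B, H3 and H4 proteins form the core around which DNA wraps, and H1 binds the linker between cores. The genes stand in clusters, have no introns as a rule, and are transcribed mainly in S phase. Their mRNAs end, as a rule, not in a poly(A) tail but just after a short stem-loop, which is bound by the stem-loop binding protein SLBP and marks the site of cleavage. Some of the genes also make polyadenylated transcripts that run past the stem-loop. The labels give the molecule as polyA RNA, and the amplification kit (Ovation RNA-Seq System V2) primes with oligo-dT and random sequence, so the values below describe captured or polyadenylated forms. They are not the amount of histone mRNA in the cell, and forms with and without a tail cannot be told apart in them. In bulk samples, fewer expressing cells and less RNA per cell cannot be told apart either.

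Transcript models (GENCODE M21, build GRCm38, not the authors' models) were found for all 68 genes. A stem-loop of 16 bases, 6 paired bases on either side of a loop of 4, was present in the model of 44 of them: 4 H1, 11 H2a, 10 H2b, 8 H3 and 11 H4 genes. No such loop was found for the other 24 genes. The search asked for GG at the start of the stem, CC at its end and TT at the start of the loop. Where several models of a gene held a loop, the model with the most bases after it was taken. The loops are shown because their stem separates the H4 genes from the other types. The letters are DNA, 5′ to 3′, with the paired stem in capitals.
Stem-loop of 26 H1, H2a, H2b and H3 genes: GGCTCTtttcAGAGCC
Stem-loop of 6 H1, H2b and H3 genes: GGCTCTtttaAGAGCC
Stem-loop of 1 H2a gene, Hist2h2ac: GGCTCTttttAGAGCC
Stem-loop of 7 H4 genes, Hist1h4d among them: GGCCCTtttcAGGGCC
Stem-loop of 2 H4 genes: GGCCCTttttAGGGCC
Stem-loop of 2 H4 genes, Hist1h4b and Hist1h4j: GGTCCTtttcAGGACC
All 11 H4 loops had a stem found in no gene of another type, and the 33 loops of the other types shared 1 stem with 3 loops.

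In 22 of the 44 models, taken as the longest past the loop for each gene, the transcript ran on for at least 100 bases past the stem-loop. The H4 gene Hist1h4d continued for 770 bases, the linker histone gene Hist1h1e for 1153 and the linker histone gene Hist1h1c for 840. At E11.5 10 of these 22 genes had a mean of at least 10 RPKM, and their median was 5.15 RPKM. Of the 22 genes whose model ended within 100 bases of the loop, 5 reached that mean, with a median of 1.87 RPKM. These 22 include Hist1h2ao, Hist1h2ap, Hist1h4n, Hist2h2aa1 and Hist2h2aa2, which were listed at 0 in every library. Between 85.6% and 100% of their stretches of 50 bases also occur in other genes. The part of this in the median was not tested. The 24 genes without a found loop had a median of 3.71 RPKM, and 6 reached 10 RPKM. Such a gene need not lack a loop. Some of these models are short, such as those of Hist1h2ak (393 bases), Hist1h2bl (381 bases) and Hist1h4k (312 bases), and may end before a loop. At E10.5 the 3 medians were 6.24, 1.11 and 3.4 RPKM. A usual polyadenylation signal (AATAAA or ATTAAA) within the last 50 bases stood in 15 models. The median of those 15 at E11.5 was 2.85 RPKM, against 4.07 RPKM for the other 53. These are descriptions of the genes' levels beside gene models that the authors may not have used.

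Hist1h4d had the highest level of the 68 genes at both stages. Its mean was 337 RPKM at E10.5 and 365 RPKM at E11.5, which was 29.6% and 28.8% of the summed means of the 68 genes, and 86.8% and 85.2% of those of the H4 genes. It was also among the steadiest of them. At E10.5 its control libraries had 279, 305, 333 and 363 RPKM, and its DCKO libraries 276, 297 and 507 RPKM. At E11.5 it ran from 153 to 676 RPKM, with a coefficient of variation over the 18 libraries of 41.2%. Of the 21 histone genes averaging 10 RPKM or more at E11.5, the H1 gene Hist1h1b alone had a lower one, 33.5%. The median of the 21 was 87.8%, beside 54.4% for the 6519 genes of the table at that mean. At E10.5 the coefficient for Hist1h4d was 24%, the lowest of its 21 genes, whose median was 55.3%, and the median of all 6221 genes at that mean was 46.1%.

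The upstream sequence of Hist1h4d is shown as that of the gene with the highest level, and that of Hist1h2bm as that of the highest H2b gene at both stages. Each is the 250 bases before the start of the gene in RefSeq, on build GRCm38.p6, read 5′ to 3′ on the plus strand, which both genes are on. A match of short stretches between the region of the RefSeq start and the GENCODE transcript was found for Hist1h2bm but not for Hist1h4d. Whether the 2 starts are the same base was not tested. Capitals mark the motifs, which were searched on both strands and are printed as found on the strand shown. The first is TATAAA, a core promoter element. The second is the box spelled CCAAT, bound by the factor NF-Y. The third is the octamer of POU factors known from H2b promoters, spelled ATTTGCAT. None of these motifs can lie within another.
Hist1h4d, chr13:23581318-23581567: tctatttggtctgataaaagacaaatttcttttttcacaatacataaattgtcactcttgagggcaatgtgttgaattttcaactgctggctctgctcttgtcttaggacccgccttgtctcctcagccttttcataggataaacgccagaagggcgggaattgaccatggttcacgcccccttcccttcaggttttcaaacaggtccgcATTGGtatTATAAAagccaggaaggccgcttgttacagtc
Hist1h2bm, chr13:21721794-21722043: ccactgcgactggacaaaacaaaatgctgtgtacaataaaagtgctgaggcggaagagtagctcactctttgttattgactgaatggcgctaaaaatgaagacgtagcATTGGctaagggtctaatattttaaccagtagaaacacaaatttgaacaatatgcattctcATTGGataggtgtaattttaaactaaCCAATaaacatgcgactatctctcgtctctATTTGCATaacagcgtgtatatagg
Hist1h4d held 1 TATA box and 1 CCAAT box close to its start, and Hist1h2bm held 3 CCAAT boxes and 1 octamer.

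RefSeq held an upstream window for 62 of the 68 genes. The start matched a GENCODE transcript, by the same short stretches, for 43 of them. All 62 windows were used. A CCAAT box stood in 82.3% of the 62 windows, against 33.8% of all 32851 windows of the same length in the table. It was in all 18 H2a, all 16 H2b and all 6 H1 windows and in 8 of 10 H3 windows, but in 3 of 12 H4 windows. The octamer stood in 7 H2a and 6 H2b windows and in no H1, H3 or H4 window; 1.6% of all windows held it. The TATA box stood in 46.8% of the 62 windows and in 12.4% of all windows. Where an H2a and an H2b gene lie back to back, their windows share bases. A match says only that these letters are there.

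By type, the H4 genes summed to 429 RPKM over the means of the E11.5 libraries (33.8% of the 68 genes), the H2b genes to 344 (27.1%), the H1 genes to 328 (25.9%), the H2a genes to 126 (9.94%) and the H3 genes to 40.6 (3.20%). At E10.5 the sums were 388, 295, 300.1, 83 and 74 RPKM in the same order. Chromatin takes up the core histones in equal numbers, and these sums of captured RNA were not equal between the types. The H4 sum was mostly Hist1h4d. Among the H1 genes, Hist1h1e had the highest mean at E11.5, 145 RPKM, followed by Hist1h1b with 69.6 RPKM. The H2a genes were led by Hist1h2ak with 75.8 RPKM and Hist2h2ac with 13.9 RPKM. Among the H2b genes Hist1h2bm stood at 113 RPKM and Hist1h2bl at 40.9 RPKM. No H3 gene went beyond the 14.8 RPKM of Hist1h3e, followed by Hist1h3g with 8.13 RPKM. Hist2h4 was the second H4 gene, with 27.6 RPKM.

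**Figure D1:**
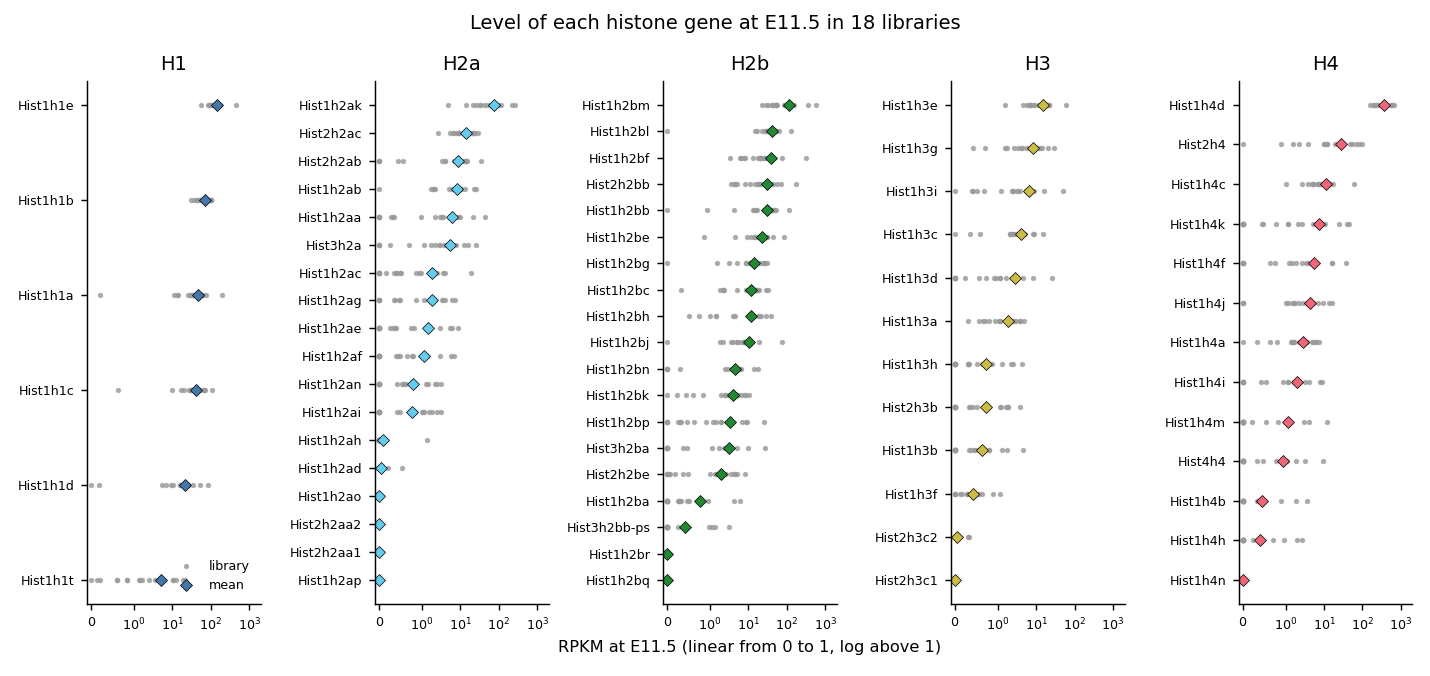
RPKM of each of the 68 histone genes at E11.5, by type; grey points are the 18 libraries, diamonds the means, and the axis is linear from 0 to 1 and logarithmic above 1. Hist1h4d, with a mean of 365 RPKM, stands apart from the other H4 genes, and 6 genes lie at 0 in all libraries.

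The remaining genes were low. A mean of at least 1 RPKM, the level at which genes were tested, was reached by 44 of the 68 genes at E10.5 and by 46 at E11.5, 43 of them in both. Of the 10 genes with the highest means, 9 were shared between the stages. In all 25 libraries 6 genes were listed at 0: Hist1h2ao, Hist1h2ap, Hist1h2bq, Hist1h4n, Hist2h2aa1 and Hist2h2aa2, named after their values were seen. Most of their sequence recurs in transcript models of other genes. The share of a gene's stretches of 50 bases that also occurs in transcripts of another gene, on either strand, was 85.6% for Hist1h4n and from 93.1% to 100% for the other 5. Of the 12 histone genes with at least 90% of their stretches shared, 5 were listed at 0 throughout. At E11.5 2 of the 12 reached a mean of 1 RPKM, and the median was 0.0419 RPKM. The highest of the 12 was Hist2h2bb, with 100% shared and a mean of 31.6 RPKM, so full sharing did not always go with a low value. Of the 34 genes under 50% shared, 29 reached 1 RPKM, with a median of 5.15 RPKM. The 22 genes between had a median of 5.46 RPKM. Reads from shared stretches may have been split or dropped in the authors' counting, so the values of the genes with many such stretches are uncertain. The part of this in the values was not tested. Hist1h4d shared 10.2%. Hist1h1e and Hist1h2be overlap in these models and share 23.8% of the stretches of Hist1h1e, so their reads can be mixed too.

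H2a and H2b genes often lie head to head, transcribed away from a short stretch between them. RefSeq starts, not all of which matched a GENCODE transcript, gave 10 such pairs within 500 bases. The H2b gene had the higher mean in 7 of the 10 at both stages, and both genes of 1 pair were at 0. Among the 7 was Hist1h2ap, at 0, with Hist1h2br, at 0.00301 and 0.00508 RPKM. Some H2a genes of these pairs shared more stretches with other genes than their H2b partners, such as Hist1h2ah (92.1%) beside Hist1h2bk (74.2%). Hist1h2ae (43.2%) beside Hist1h2bg (49.7%) was the reverse. The part of this in the order of the pairs was not tested. Hist1h2bf averaged 55.9 RPKM at E10.5 and 38.2 RPKM at E11.5 while its partner Hist1h2ad averaged 0.0325 and 0.0410 RPKM, and it was the higher of the pair in all 7 and all 18 libraries. Hist1h2ak and Hist1h2bn showed the opposite order: Hist1h2ak was the higher in all 7 and all 18 libraries, with means of 41.2 and 75.8 RPKM against 3.92 and 4.57 RPKM. The stretch between Hist1h2bf and Hist1h2ad is shown because the ratio of their levels is the widest among the pairs with both genes above 0, against a partner close to 0, on the strand of Hist1h2bf (minus), with its CCAAT boxes in capitals; these pairs were chosen after their values were seen.
Hist1h2ad to Hist1h2bf, 173 bases, GRCm38.p6, chr13:23574208-23574380: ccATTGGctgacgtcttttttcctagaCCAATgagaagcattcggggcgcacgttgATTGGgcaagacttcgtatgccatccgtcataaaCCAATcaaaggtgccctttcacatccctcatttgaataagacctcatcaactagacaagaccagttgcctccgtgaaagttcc
The shares of stretches also found in other genes were 67.1% for Hist1h2ad and 65.8% for Hist1h2bf, and 57.0% for Hist1h2ak and 86.4% for Hist1h2bn.

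The libraries themselves varied. Between 9125 and 11095 genes reached 1 RPKM in an E10.5 library, and between 8277 and 13200 in an E11.5 library. For Dnmt1 itself, all DCKO values lay under all control values at both stages (log2 difference of -2.07 ± 0.34 SE at E11.5, limma adjusted p = 0.0355, and -2.07 ± 0.38 at E10.5, adjusted p = 0.991). The mean of log2(RPKM + 1) over 10 germ cell markers lay between 6.22 and 6.98 at E10.5 and between 3.38 and 6.64 at E11.5. That over 12 gonadal somatic and mesenchymal markers lay between 0.62 and 2.17 at E10.5 and between 0.62 and 5.34 at E11.5. Its highest values at E11.5 were the 5.34 of male control 3, the 4.86 of female DCKO 4 and the 4.43 of male DCKO 1. Male control 3 also held the lowest germ cell marker mean, 3.38, and the next lowest was the 5.05 of female DCKO 4.

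At E11.5 the summed RPKM of the 68 genes was 528 to 1276 in the 8 controls, with a mean of 1011 ± 248 (SD). In the 10 DCKO libraries it was 949.6 to 3445, with a mean of 1471 ± 718. The groups overlapped. Male DCKO 1 held the 3445 RPKM, and the next DCKO library 1548 RPKM. Without male DCKO 1, left out after the values were seen, the DCKO mean was 1252 ± 197 RPKM (SD, n = 9). That library also had the highest value of the 18 in 17 of the 46 tested histone genes, while no other library had the highest in more than 5. Its H2b genes summed to 1281 RPKM and its H1 genes to 913 RPKM. It had 9668 genes at 1 RPKM or more, a germ cell marker mean of 5.17 and a somatic marker mean of 4.43; the part of these in its histone values was not tested.

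**Figure D2:**
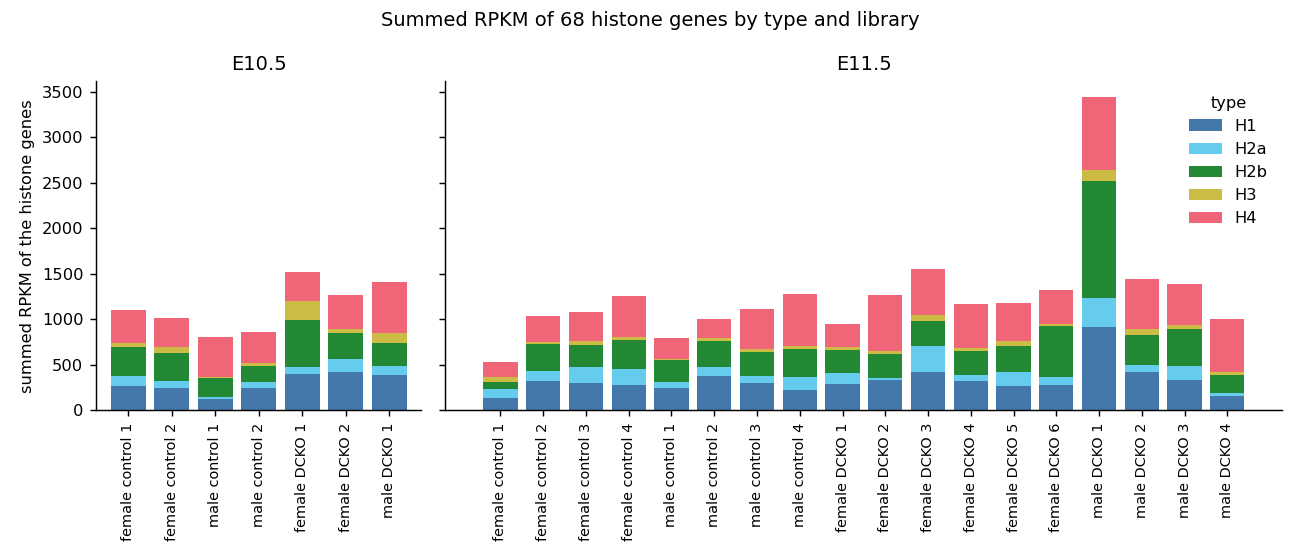
Summed RPKM of the 68 histone genes in each library at E10.5 (left) and E11.5 (right), stacked by type. Male DCKO 1 at E11.5 reaches 3445 RPKM, and at E10.5 all 3 DCKO bars are taller than all 4 control bars.

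Genotype at E11.5 moved no histone gene past the threshold, an adjusted p under 0.05 over all 12667 genes tested. Of those genes 0.0237% passed, 3 in all. The log2 difference, DCKO minus control on the log2(RPKM + 1) scale, was above 0 for 26 of the 46 tested histone genes, with a median of 0.19, beside a median of -0.06 over all genes tested. It was above 0 for 5 of 6 H1 genes (median 0.45), 10 of 15 H2b genes (median 0.30) and 8 of 9 H4 genes (median 0.66), and for 1 of 10 H2a genes (median -0.46) and 2 of 6 H3 genes (median -0.18). The median of the 46 was 0.01 without male control 4, the library with the fewest genes at 1 RPKM, 0.37 without male DCKO 4, and -0.01 with the number in the sample titles as a block. An unadjusted p under 0.05 with a higher value in DCKO was reached by 5 of the 46, against 1.73% of all genes tested; these were Hist1h4d, Hist1h3e, Hist1h2be, Hist1h2bm and Hist1h1e. One with a lower value, Hist2h2ab, was found against 3.73%. For none of the 46 did the groups separate without overlap; every DCKO library was above every control library for 0.00789% of all genes tested, and below for 0.0316%.

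Hist1h4d had, in the E11.5 controls, a lowest value of 153, a median of 240 and a highest of 540 RPKM; in DCKO these were 216, 397 and 676 RPKM. The groups overlapped. The log2 difference was 0.66 ± 0.25 (SE), with an adjusted p of 0.902 by limma and an exact permutation p of 0.0320 over 43758 splits. This exact p and those below are unadjusted and leave out sex. For genes picked by a small limma p, they give no independent support.
Hist1h1e, which encodes a somatic linker histone, had a control range of 54.3 to 170 RPKM around a median of 108, and a DCKO range of 91.1 to 459.8 RPKM around 149.8 RPKM. Its difference was 0.56 ± 0.26 and its exact permutation p was 0.0606. The 459.8 RPKM was that of male DCKO 1, and all other libraries of both groups had 170 RPKM or less.
The H3 gene Hist1h3e had control values from 1.54 to 20.6 RPKM and DCKO values from 6.43 to 60.4 RPKM, with a difference of 1.05 ± 0.41 and an exact permutation p of 0.0480. Male DCKO 1 again was highest; the second DCKO library had 22.2 RPKM. In the males the DCKO libraries had 18.3, 18.7, 22.2 and 60.4 RPKM and the controls 1.54, 5.91, 8.73 and 20.6 RPKM, of which 1 exceeded 2 DCKO libraries.
Both H2b genes spread more widely. Hist1h2bm ran from 23.3 to 105 RPKM in controls and from 28.4 to 597 RPKM in DCKO, with a difference of 1.09 ± 0.50. Its exact permutation p was 0.0633. Its 2 highest libraries were male DCKO 1, at 597 RPKM, and female DCKO 6, at 356 RPKM; without male DCKO 1 the difference was 0.72. Hist1h2be ran from 0.866 to 23.4 RPKM in controls and from 9.22 to 85.5 RPKM in DCKO, with a difference of 1.14 ± 0.49 and an exact permutation p of 0.0230. Without male control 4, which held the 0.866 RPKM, this difference was 0.74.
The H2a gene Hist2h2ab was listed at 0 in 3 of 10 DCKO libraries and in no control. The controls had 4.06 to 15.03 RPKM and the DCKO libraries 0 to 33.7 RPKM, so that the single highest library was a DCKO library. The log2 difference was -1.45 ± 0.68, and the adjusted p was 0.902 by limma.

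**Figure D3:**
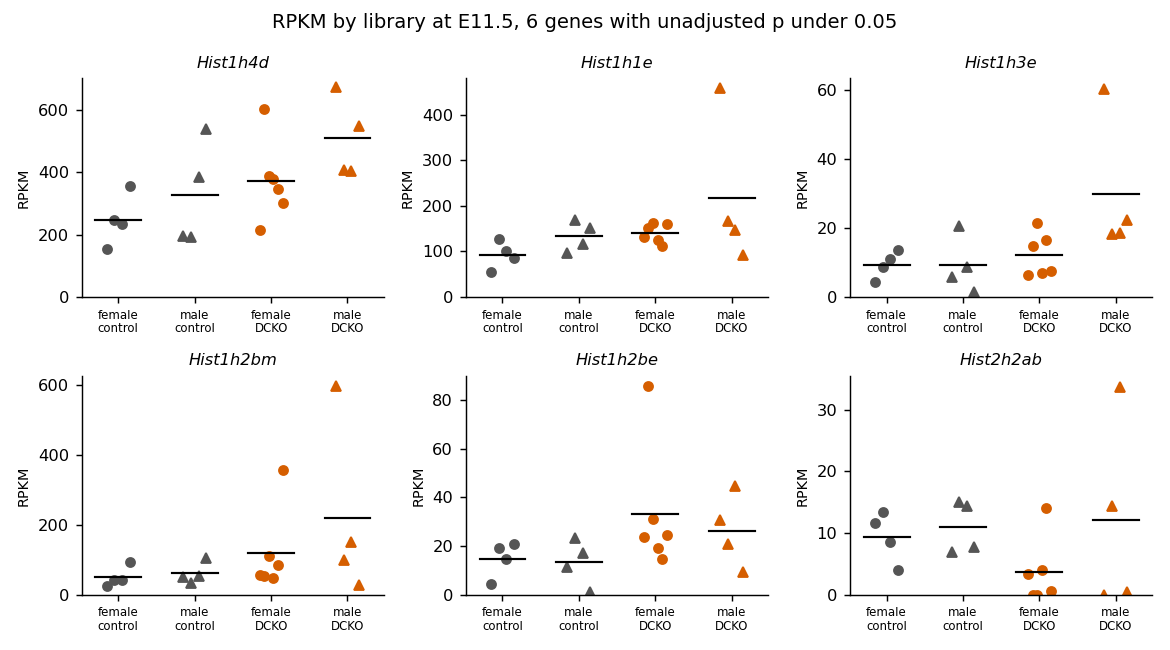
RPKM by library at E11.5 of the 6 histone genes with an unadjusted p under 0.05 for genotype; circles are female and triangles male libraries, grey controls and orange DCKO, and bars the group means. Values of the 2 genotypes overlap in every panel, and the highest points of Hist1h4d, Hist1h1e, Hist1h3e and Hist1h2bm are male DCKO 1, as high as 676 RPKM for Hist1h4d.

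Within each sex no histone gene passed the threshold. Of all genes, 0.00789% passed in females and 0.0316% in males, and 2.17% and 6.95% had an unadjusted p under 0.05. Among the 46 histone genes 2 had such a p in females and 2 in males. In females 23 of the 46 were above 0, with a median of -0.04. The smallest p was that of the H4 gene Hist1h4c, at 1.59 ± 0.60 (limma adjusted p = 1): the female controls had 1.00, 2.70, 4.80 and 8.41 RPKM and the female DCKO libraries 6.84 to 61.9 RPKM. The 61.9 RPKM of female DCKO 6 was far above the next DCKO library, 11.45 RPKM, and without it the difference was 1.15. In males 30 of the 46 were above 0, with a median of 0.42, which was 0.18 without male DCKO 1 and 0.80 without male DCKO 4. Hist1h3e had the smallest p there, at 1.80 ± 0.60 (adjusted p = 0.624).

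The genotype difference did not differ between the sexes past the threshold for any gene: the test of that interaction called 0% of genes, and 3.58% had an unadjusted p under 0.05, none of them among the 46. The median of the female minus the male difference over the 46 was -0.44; it was -0.10 without male DCKO 1 and -1.07 without male DCKO 4. Hist1h4m, an H4 gene listed at 0 in 12 of the 18 libraries, had the smallest p, at -1.91 ± 0.97 (adjusted p = 0.995 by limma).

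Between the sexes at E11.5, over both genotypes, no histone gene passed either, against 0.0395% of all genes; 4 of the 46 had an unadjusted p under 0.05, against 5.7%. The smallest p was that of Hist1h2aa, an H2a gene known from testis, which averaged higher in females: the log2 difference, female minus male, was 1.89 ± 0.67 (adjusted p = 0.813 by limma). Female control values were 0.988, 5.26, 9.95 and 42.8 RPKM and male control values 0, 0, 0.311 and 2.21 RPKM. Female DCKO libraries ran from 0 to 20.9 RPKM and male DCKO libraries from 0 to 3.41 RPKM, and the sexes overlapped in both genotypes. At E10.5 Hist1h2aa was at 0 in both male controls and at 6.23 RPKM in the male DCKO library.

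At E10.5 the summed RPKM of the histone genes did not overlap between genotypes. The controls had 810, 856, 1016 and 1106 RPKM, a mean of 947 ± 138 (SD, n = 4), and the DCKO libraries 1266, 1410 and 1518 RPKM, a mean of 1398 ± 126 (SD, n = 3). As a share of each library's total RPKM the groups did overlap, at 0.0909% to 0.149% in controls and 0.135% to 0.201% in DCKO. With median-of-ratios scaling they did not, at 780.5 to 1033 and 1166 to 1537 RPKM. In RPKM the gap was clearest in H1: 121, 247, 250 and 264 RPKM in controls and 393, 403 and 424 RPKM in DCKO. H1 was picked out after the values were seen. As a share of total RPKM the H1 sums overlapped too. Female DCKO 1 had 403 of 1121158 RPKM, a smaller share than the 247 of 669740 RPKM in male control 2. The H4 sums, 318 to 442 and 322 to 559 RPKM, overlapped, as did those of H2a, H2b and H3.

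Gene by gene at E10.5, none of the 44 tested histone genes passed the threshold, and 0% of the 11584 genes tested did. An unadjusted p under 0.05 with a higher value in DCKO was reached by 3 of the 44, against 1.49% of all genes tested, and a lower value by 0, against 1.6%. Every DCKO library was above every control library for 5 of the 44, against 2.28% of all genes, and below for 0, against 2.87%. Of the 44, 31 had a log2 difference above 0, with a median of 0.57, beside -0.05 over all genes. Medians by type were 0.96 for H1 (5 of 6 above 0), 1.25 for H3 (6 of 6), 0.69 for H4 (8 of 9), 0.10 for H2b (7 of 14) and 0.05 for H2a (5 of 9). The median of the 44 depended on which libraries were kept and on the settings. Without male DCKO 1 of E10.5, the only male of its group, it was 0.00. With library weights, and no library left out, it was 0.24.

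**Figure D4:**
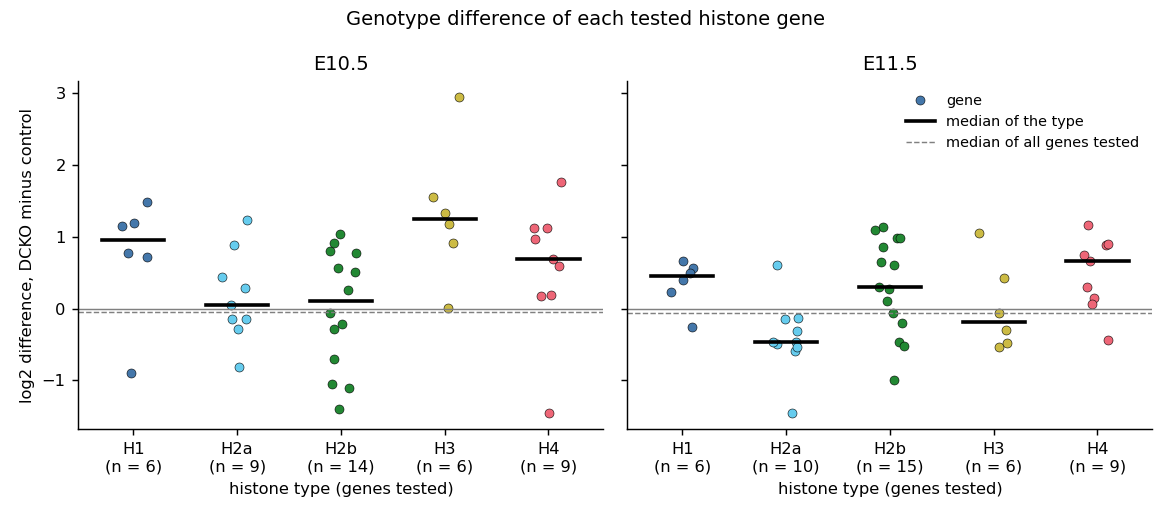
Log2 difference, DCKO minus control, of each tested histone gene by type, at E10.5 (left, 44 genes) and E11.5 (right, 46 genes); bars are the medians of each type, and the dashed line is the median of all genes tested. H1 and H4 medians lie above 0 at both stages, and the H2a median lies at 0.05 at E10.5 and at -0.46 at E11.5.

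Of the 5 genes that did not overlap, 3 encode linker histones. Hist1h1c, a linker histone gene known to make polyadenylated transcripts, had 13.98, 34.1, 36.0 and 40.9 RPKM in controls and 58.5, 77.8 and 81.0 RPKM in DCKO. Its log2 difference was 1.19 ± 0.43 (SE), with a limma adjusted p of 0.991 and 0.0286 by exact permutation, which is as small as 35 splits can give. Hist1h1e had 26.6, 94.98, 98.7 and 130 RPKM in controls and 137, 166 and 225 RPKM in DCKO, a difference of 1.15 ± 0.56 with an exact permutation p of 0.0571; the highest control and the lowest DCKO library lay close together.
Hist1h1t, the testis linker histone, was low: 0, 0.699, 1.93 and 2.16 RPKM in controls and 4.60, 4.65 and 5.79 RPKM in DCKO. The difference was 1.48 ± 0.66, and the exact permutation p was 0.0286 again. Without male DCKO 1 the difference was 0.89. At E11.5 the same gene spread from 0 to 20.7 RPKM in DCKO and from 0.205 to 10.2 RPKM in controls, with a difference of 0.23 ± 0.69.
The H3 gene Hist1h3g had 0.728, 3.19, 4.87 and 10.47 RPKM in controls and 13.7, 40.7 and 51.6 RPKM in DCKO. It had the smallest p of the 44, with a difference of 2.95 ± 0.70 (limma adjusted p = 0.991); at E11.5 its difference was 0.42 ± 0.59. The H4 gene Hist1h4a had 0, 1.01, 2.201 and 2.92 RPKM in controls and 6.88, 7.05 and 7.15 RPKM in DCKO, a difference of 1.77 ± 0.70, and 0.15 ± 0.44 at E11.5. For both Hist1h3g and Hist1h4a the exact permutation p at E10.5 was 0.0571. Hist1h2ac, below the level tested and picked out after its values were seen, was at 0 in 3 controls and at 0.260 RPKM in the fourth, and at 1.48, 1.49 and 1.76 RPKM in DCKO. Hist1h4d, by contrast, had a difference of 0.19 ± 0.31 at this stage.

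**Figure D5:**
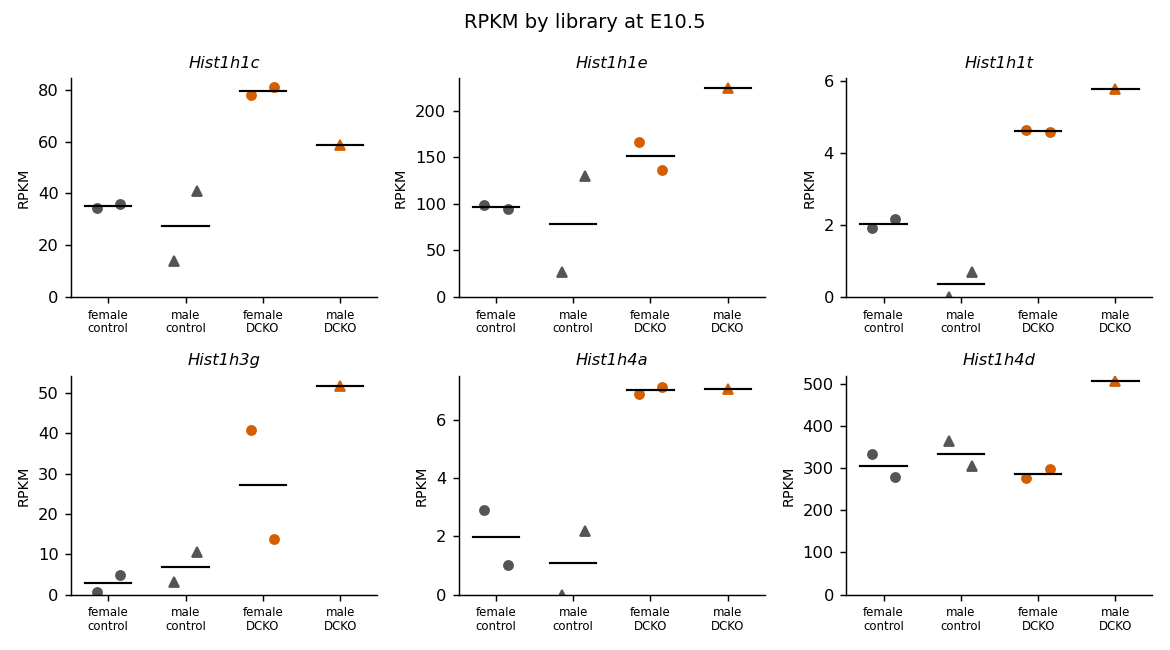
RPKM by library at E10.5 of the 5 tested histone genes whose genotypes did not overlap, and of Hist1h4d; circles are female and triangles male libraries, grey controls and orange DCKO, and bars the group means. In the first 5 panels all DCKO points lie above all controls, at 58.5 RPKM or more for Hist1h1c; in the Hist1h4d panel they overlap.

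Of the 5 genes listed as known to make polyadenylated transcripts, Hist1h1c was the only one with a mean above 20 RPKM, at 48.9 RPKM at E10.5 and 41.5 RPKM at E11.5. The H2b gene Hist1h2bc stood at 19.1 and 12.1 RPKM, the H2a gene Hist3h2a at 5.51 and 5.23 RPKM, the H4 gene Hist4h4 at 4.33 and 0.937 RPKM, and the H2b gene Hist2h2be at 1.30 and 1.961 RPKM. None passed the threshold for genotype. The difference was above 0 for 1 of 4 tested at E11.5 and 2 of 5 at E10.5. Of the 3 testis variants, Hist1h1t and Hist1h2aa were tested at both stages and neither passed. Hist1h2ba, the testis H2B, reached a mean of 0.370 RPKM at E10.5 and 0.760 RPKM at E11.5.

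Genes that make, process or load histones were taken from fixed lists, none of whose genes passed the threshold at either stage. In the list of histone mRNA processing factors, 15 genes such as Slbp and Npat, 10 were above 0 at E11.5 (median 0.09) and 6 at E10.5 (median -0.04). Cpsf2, a subunit of the cleavage complex, had the smallest p at E11.5, at -0.58 ± 0.26, with 44.7 ± 14.04 RPKM in controls (SD, n = 8) and 29.9 ± 8.66 RPKM in DCKO (SD, n = 10). Zfp473, which acts with the U7 particle, had the smallest p at E10.5, at -1.49 ± 0.83. Among 18 chaperones and assembly factors 7 were above 0 at E11.5 (median -0.13) and 9 at E10.5 (median 0.00). Ssrp1, a subunit of the FACT complex, was at -0.40 ± 0.19 at E11.5, and Asf1b, a chaperone of H3 and H4, at 1.18 ± 0.52 at E10.5. Of 20 S phase and proliferation genes 8 were above 0 at E11.5 (median -0.03) and 5 at E10.5 (median -0.21). Rrm2, a subunit of ribonucleotide reductase, was at -0.59 ± 0.25 at E11.5, and Cdt1, a replication licensing factor, at 1.19 ± 0.50 at E10.5.

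The list of replacement histones and other histone genes outside the clusters, such as those of H3.3, H2A.Z and CENP-A, numbered 11, all of them tested. At E11.5 8 were above 0 (median 0.08) and at E10.5 3 (median -0.05). H3f3b, which encodes H3.3, had the smallest p at E11.5: the controls had 49.8 to 109 RPKM with a mean of 71.9 ± 19.8 (SD, n = 8) and the DCKO libraries 66.2 to 176 RPKM with a mean of 112 ± 30.7 (SD, n = 10). Its log2 difference was 0.64 ± 0.22 (limma adjusted p = 0.884). H1fx, a linker histone gene, had the smallest p of the list at E10.5, at -1.01 ± 0.59. Of the 9 germline histone and protamine genes outside the clusters, 8 were in the tables and none reached the level tested.

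Markers of other cell types did not pass the threshold either. Of the 11 gonadal somatic and mesenchymal markers tested at E11.5, 2 were above 0 (median -0.15), and at E10.5 2 of 4 (median 0.29); the smallest p values were those of Vim at E11.5, at -1.68 ± 0.76, and Col3a1 at E10.5, at -0.82 ± 0.83. Endothelial markers had medians of 0.02 (3 of 6 above 0, Tie1 at 0.54 ± 0.80) and -0.01 (2 of 4, Tek at 0.98 ± 0.66). Erythroid markers had medians of -0.18 (2 of 5, Hba-x at -0.88 ± 1.66) and 0.05 (4 of 5, Hbb-bh1 at -1.80 ± 1.98), and macrophage markers -0.92 (1 of 4, Tyrobp at -1.66 ± 0.51) and -0.75 (0 of 4, Fcer1g at -0.91 ± 0.86). Germ cell markers had medians of 0.02 (5 of 10, Pou5f1 at -0.73 ± 0.56) and -0.07 (4 of 10, Ifitm3 at -0.69 ± 0.45). At E10.5 the summed RPKM of the 12 somatic markers was 44.6, 47.4 and 66.4 in the DCKO libraries and ran from 33.0 to 149 in the controls; its part in the histone values was not tested.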

How the data were processed

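The authors deposited 1 table of RPKM per stage. The submitters' processing notes name mm9, TopHat2 2.1.0, Cufflinks 2.2.1 and Cuffdiff; for gene models and filters, not given in the sources used here. No whole-read steps were seen in the RPKM, hence depth is unknown and no counting interval is possible. Of 37 samples in the labels, 25 had values. No 2 libraries were identical (highest correlation of log2 values 0.878 at E11.5 and 0.831 at E10.5). Tests ran within each table with limma 3.58.1 (R 4.3.3), trend on, on log2(RPKM + 1), which understates changes of low genes, over genes averaging 1 RPKM or more. The E11.5 model held 4 group means; E10.5 had terms for genotype and sex. The threshold was 0.05 for the Benjamini-Hochberg adjusted p. Single genes also had exact permutation tests over libraries, unadjusted and without regard to sex. All tests were two-sided. The fit was run on simulated data with larger changes than those of the histone genes and a smaller spread. That run therefore cannot show how well differences of the size seen here are found. The members and lists were chosen with earlier results of these data known. Genes named were the 2 highest of each type, the testis and polyadenylated lists, the 4 smallest p for genotype at each stage, the smallest p of each other comparison and list, and Dnmt1; all others, such as Hist2h2ab, Hist1h2bf and the head-to-head pairs, were named after their values were seen. Stem-loops, shared stretches and motifs came from GENCODE M21 transcripts and RefSeq tables (GRCm38.p6) searched in Python 3.11.15. Alternatives were pseudocounts of 0.1 and 0.5, other filters, scalings, library weights, models, blocks and left-out libraries.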

Additional observations from a re-analysis of the deposited data

Results flagged for a closer look

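Single libraries far from the rest of their E11.5 group were looked for in 28 gene values and sums on the log2(RPKM + 1) scale, 112 combinations of value and group in all, by the gap to the nearest library over the range of the group. For separate, normally spread values chance flags about 1 in 20. The values here are not separate, as the sums contain the genes. The 14 found can therefore not be set against that rate. Among the sums, the H1 genes of female control 1 stood at 130 RPKM, the lowest of 4, with the next at 279 RPKM, and the H2b genes of female DCKO 6 at 558 RPKM, the highest of 6, with the next at 289 RPKM. Female control 1 was also lowest for Hist1h1b, at 30.6 RPKM, and for Hist2h2ac, at 5.31 RPKM. Female DCKO 6 was highest for Hist1h4c, at 61.9 RPKM. Male DCKO 1 was highest for Hist1h3e, at 60.4 RPKM. Male DCKO 4 was lowest for Hist1h1c, at 9.57 RPKM, and male control 4 for Hist1h2bl, which was listed at 0 there while the next male control had 31.9 RPKM. The others were low genes: Hist1h2ba at 5.97 RPKM in female DCKO 5 and 4.34 RPKM in female control 4, Hist1h4a at 2.28 RPKM in female control 3, Hist1h4m at 0.217 RPKM in female DCKO 4 and 0.824 RPKM in male control 3, and Hist4h4 at 0.323 RPKM in female control 4. In the groups of the last 3 values the other libraries were at 0, so any value above 0 would have been flagged there.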

How the results depend on the processing

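No histone gene passed the threshold in any of the 6 comparisons under any alternative run (0 throughout, by limma). The genes named for the smallest p of each comparison kept the sign of their difference in every run that tested them. Other genes were not followed singly. The median of the histone genes at E10.5 was 0.57; it was 0.83 with a pseudocount of 0.1, 0.25 without a filter, 0.24 with library weights and 0.26 without the library with the fewest genes. Leaving out 1 library at a time gave 0.00 (without male DCKO 1) to 0.74 (without female DCKO 2). The median at E11.5, 0.19, ran from 0.01 (without male control 4) to 0.37, and to 0.46 with a filter at 5 RPKM. The cause was not tested. No label says that a number marks a shared litter or day, and not every same-numbered pair of libraries correlated above 0.1, so the numbers were not taken as pairing. By replicate number 5 of 24 pairs did at E11.5 and 0 of 6 at E10.5. By title number 7 of 16 pairs did at E11.5 (highest r 0.49, median 0.08 against 0.00 for other pairs), where 11 of 18 libraries correlated best with their own number, a hint from the data only, and 0 of 4 at E10.5. For the replicate number, 8 of 18 libraries at E11.5 and 6 of 6 compared at E10.5 correlated best with their own number. At E10.5 the median r was 0.05, against -0.05 for other pairs. Those 6 come from groups of 2, whose deviations mirror each other, so they are not separate. With the replicate number as a block the medians were 0.24 at E11.5 and 0.64 at E10.5. With the title number as a block the medians were -0.01 and 0.28. Calls over all genes moved more: for sex at E11.5, 5 became 51 with library weights and 1 with the title block, and for genotype at E10.5, 0 became 11 without male DCKO 1. At E11.5 calls went from 3 to as many as 5 for genotype, from 1 to as many as 4 in females, from 4 to as few as 1 in males and from 0 to 1 for the interaction. The log2 ratio of summed RPKM, DCKO to control, was 0.49 at E11.5 and 0.34 without male DCKO 1, 0.41 without Hist1h4d and 0.33 as a share of total RPKM; at E10.5 it was 0.57, and 0.41 to 0.75 under the same changes of scale or of genes. These were added after the data were seen. Depth is unknown, so low genes and genes at 0 carry no limit.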
